A study of Mus musculus with 24 samples.

Results

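The muscarinic acetylcholine receptors of the mouse are the 5 genes Chrm1, Chrm2, Chrm3, Chrm4 and Chrm5, which encode the receptors M1 to M5. They were 5 of the 51826 genes of the count table, found by their symbols in GENCODE M21, and were followed in 24 libraries of dorsal hippocampus from 7 groups. Chrm4 was chosen in part because it was higher after learning in WT mice and lower in CBP KIX/KIX mice after learning, so its values are given as a description with no test. This holds in every comparison, since each shares libraries with those contrasts. The other members were taken as the rest of the family, with earlier results of these data known, and were tested throughout.

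The study asked which hippocampal transcripts change during memory consolidation and which of these depend on the KIX domain of CBP, a coactivator encoded by Crebbp. CBP KIX/KIX mice carry point mutations in both copies of the KIX domain from the germline onward, in every cell, so that phosphorylated CREB cannot bind there. They came from heterozygous matings on a C57BL/6j background, with WT littermates as controls, and all libraries were labelled as male mice of 2 to 4 months. RNA-Seq 1 held 3 WT homecage, 3 WT and 3 CBP KIX/KIX libraries, the trained mice taken 1 h after Morris water maze (MWM) training of 3 days, with ribosome-depleted total RNA.

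RNA-Seq 2 used polyA-selected RNA, and the trained mice were taken 1 h after contextual fear conditioning (CFC), a single session with 1 foot shock. Its WT mice gave 3 homecage and 4 CFC libraries, and its CBP KIX/KIX mice gave 4 of each kind. The homecage mice of this experiment were handled but not shocked. Task, library type and sequencing site changed together between the experiments, so they cannot be told apart. The mutant homecage libraries had no matching group in RNA-Seq 1.

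Acetylcholine reaches the hippocampus mainly from the medial septum and diagonal band, and its release rises with attention and exploration. M1, M3 and M5 couple to Gq/11 proteins, which activate phospholipase C and close M-type potassium channels. M2 and M4 couple to Gi/o proteins, which lower cyclic AMP and open inwardly rectifying potassium channels, and both also act as presynaptic brakes on transmitter release. M1 is the main muscarinic receptor of hippocampal pyramidal cells.

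The members are close in sequence, which matters because counts of near-identical genes can be mixed. The longest exact stretch shared by transcripts of any pair of members was 29 bases, between Chrm1 and Chrm4, and the shortest of these longest stretches was 17 bases. Every one was shorter than a sequencing read. The pairs below show the stretch that Chrm1 shares with Chrm4, the best match of the family, and the one that Chrm4 shares with Chrm5, with identical runs in capitals and flanking bases in lower case, from GENCODE M21 transcripts.
Chrm1: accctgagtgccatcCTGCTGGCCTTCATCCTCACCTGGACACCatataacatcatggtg
Chrm4: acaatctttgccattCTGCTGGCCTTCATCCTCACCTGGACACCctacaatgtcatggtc
Chrm4: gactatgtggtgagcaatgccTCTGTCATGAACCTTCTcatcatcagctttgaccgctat
Chrm5: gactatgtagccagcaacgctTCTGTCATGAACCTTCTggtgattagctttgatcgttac
Outside the capitals both pairs differ within a few bases, so a read across either stretch could be told apart by its flanks.

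The gene models differed more than the coding sequences. Chrm4 (chromosome 2, 91927249 to 91928688, plus strand) and Chrm5 (chromosome 2, 112479171 to 112480769, minus strand) were modelled on GRCm38 as 1 exon each of 1440 and 1599 bases, of which 99.8% was coding in both. Chrm1 (chromosome 19, 8663789 to 8683587, plus strand), Chrm2 (chromosome 6, 36388084 to 36528414, plus strand) and Chrm3 (chromosome 13, 9875486 to 10360847, minus strand) had 6487, 6053 and 6253 exon bases, of which 21.3%, 23.1% and 28.3% was coding. If the counting used the same models, reads from untranslated parts of Chrm4 and Chrm5 transcripts fell outside them, while those of the other members were counted. The annotation release behind the counts is not given, so this is not known. Exons of Chrm2 overlapped the gene 9330158H04Rik on the opposite strand over 142 bases, and those of Chrm1 overlapped Gm22820 over 329 bases. As the strand setting of the counting is not given in the sources used here, reads in these overlaps cannot be assigned to one gene.

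The promoters of Chrm4 and Chrm5, the members whose groups separated most often, were unlike each other. RefSeq windows of 300 bases on GRCm38.p6, 250 before and 50 after the start, were found for 4 of the 5 members. That of Chrm4 (chr2:91921939-91922238, plus strand) held 30 CpG pairs at 70.7% GC, and its start lay 5060 bases before the GENCODE model. That of Chrm5 (chr2:112480768-112481067, minus strand) held 3 at 39% GC, and its start lay 48 bases before the model. The median over 32851 promoters was 7 CpG pairs at 52.7% GC. CpG pairs are in capitals.
Chrm4: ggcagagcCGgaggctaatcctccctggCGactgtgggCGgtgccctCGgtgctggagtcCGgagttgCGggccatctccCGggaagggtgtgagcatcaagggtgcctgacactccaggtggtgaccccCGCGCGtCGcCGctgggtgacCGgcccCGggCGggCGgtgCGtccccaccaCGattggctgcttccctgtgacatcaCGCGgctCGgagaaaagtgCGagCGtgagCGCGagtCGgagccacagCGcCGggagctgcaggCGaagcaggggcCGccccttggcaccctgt
Chrm5: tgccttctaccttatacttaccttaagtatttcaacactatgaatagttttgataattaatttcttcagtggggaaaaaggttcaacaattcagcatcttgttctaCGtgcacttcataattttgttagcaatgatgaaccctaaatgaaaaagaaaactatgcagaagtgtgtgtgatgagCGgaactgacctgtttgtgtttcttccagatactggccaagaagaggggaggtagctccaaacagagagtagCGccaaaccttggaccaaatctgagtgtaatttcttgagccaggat
The promoters of Chrm2 and Chrm3 lay between these, with 16 and 11 CpG pairs. Read on both strands, none of the 4 windows held the cyclic AMP response element TGACGTCA, to which CREB binds, or its core TGACG, which that element contains. These were present in 1.79% and 20.8% of all promoters. Nor did any window hold the E-box CACGTG (7.15% of all), the EGR site GCGNGGGCG (5.55%) or the AP-1 site TGANTCA (7.81%). These letters are absent only from these windows, and nothing follows about the factors.

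Total counts per library were 38174044 to 65709282 in RNA-Seq 1 and 15385836 to 46056290 in RNA-Seq 2. A floor of 3 counts equals 0.0448 to 0.0754 CPM in the first and 0.0655 to 0.194 CPM in the second. This floor covers counting error only, while the intervals of the fold changes also carry the spread between libraries. CPM are counts scaled to a common library size after upper-quartile normalization. Every member was above the floor in each library and passed the filter on low counts in both experiments, so none was dropped. The scarcest, Chrm5, had 58 to 186 counts in RNA-Seq 1 and 21 to 95 in RNA-Seq 2, a counting error of up to 21.8% in a single library. All 5 marker genes each of neurons, CA1, CA3 and dentate granule cells had at least 3 counts in every library labelled as dorsal hippocampus. Of the 3 cholinergic neuron markers, Chat and Slc18a3 were at 0 counts in some libraries. Crebbp, whose level the point mutations need not change, was at 137 to 161 CPM in mutant and 141 to 190 CPM in WT libraries after MWM and at 68.3 to 78 and 67.2 to 77.3 CPM after CFC, so the groups overlapped.

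One library stood apart from its label. The library labelled CBP KIX/KIX homecage replicate 3 had 117 CPM of the activity gene Fos, against 1.83 to 4.77 CPM in the other 3 of its group and 18 to 33.6 CPM in the 8 trained libraries of RNA-Seq 2. Its Arc and Egr1, also activity genes, were at 617 and 442 CPM, again above each trained library of that experiment. Replicate 4 of the same group stood apart by its astrocyte markers, which summed to 2693 CPM against 1234 to 1897 CPM in the other 14 libraries of RNA-Seq 2. Of these markers Gfap alone had 1600 CPM in replicate 4, against 330 to 372 CPM in the WT homecage libraries of RNA-Seq 2. Changes of the members against the CBP KIX/KIX homecage group are given with and without replicates 3 and 4, an alternative chosen after seeing the data. In RNA-Seq 1, WT homecage replicate 3 lay far from the others of its group. The chi-square per gene between its counts and theirs was 81.3 and 71.66, against 14.54 between replicates 1 and 2. Its choroid plexus markers summed to 1473 CPM, against 116 and 127 CPM in those replicates. Such sums varied widely in other groups too, from 38.2 to 4560 CPM in WT CFC.

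Per exon length the family was dominated by Chrm1. Levels per length (RPKM, CPM divided by exon length in kilobases) ran from 38.2 to 57 for Chrm1 in RNA-Seq 1 and from 32.6 to 44.1 in RNA-Seq 2. Chrm1 made up 64.6 ± 3.17% (SD, n = 9) of the summed RPKM of the 5 genes in RNA-Seq 1 and 64.9 ± 2.18% (SD, n = 15) in RNA-Seq 2. It was the highest member in each of the 24 libraries.

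The order below Chrm1 differed between the experiments. In RNA-Seq 1 Chrm4 came next at 11.5 to 19.7 RPKM, above Chrm3 at 6.31 to 8.21 RPKM, with no overlap. In RNA-Seq 2 Chrm3 came next at 7.27 to 11.3 RPKM and then Chrm4 at 4.1 to 10.3 RPKM, and Chrm3 was the higher of these in 14 of 15 libraries although the ranges overlapped. Chrm4 made up 21.8 ± 2.49% (SD, n = 9) of the family in RNA-Seq 1 and 14.2 ± 2.08% (SD, n = 15) in RNA-Seq 2, and Chrm3 made up 10.3 ± 1.55% and 16.8 ± 1.01%. The order differed without training too. In WT homecage mice Chrm4 had 12.6 to 16.7 and Chrm3 6.31 to 6.85 RPKM in RNA-Seq 1, and Chrm4 had 7.39 to 8.97 and Chrm3 9.71 to 10.4 RPKM in RNA-Seq 2, with no overlap in either. Library type and sequencing site cannot be told apart here, and the Chrm4 model holds 99.8% coding bases.

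Chrm5 and Chrm2 were the lowest members, and their order was not resolved. In RNA-Seq 1 Chrm5 had 0.823 to 1.92 RPKM and Chrm2 0.771 to 1.41 RPKM, with Chrm5 higher in 6 of 9 libraries. In RNA-Seq 2 Chrm2 had 1.07 to 1.8 RPKM and Chrm5 0.411 to 1.63 RPKM, with Chrm2 higher in 12 of 15 libraries. The Gi/o-coupled pair Chrm2 and Chrm4 made up 23.3 ± 2.42% (SD, n = 9) of the family RPKM in RNA-Seq 1 and 16.5 ± 1.97% (SD, n = 15) in RNA-Seq 2. The rest, 76.7% and 83.5%, was Gq/11-coupled.

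**Figure D1:**
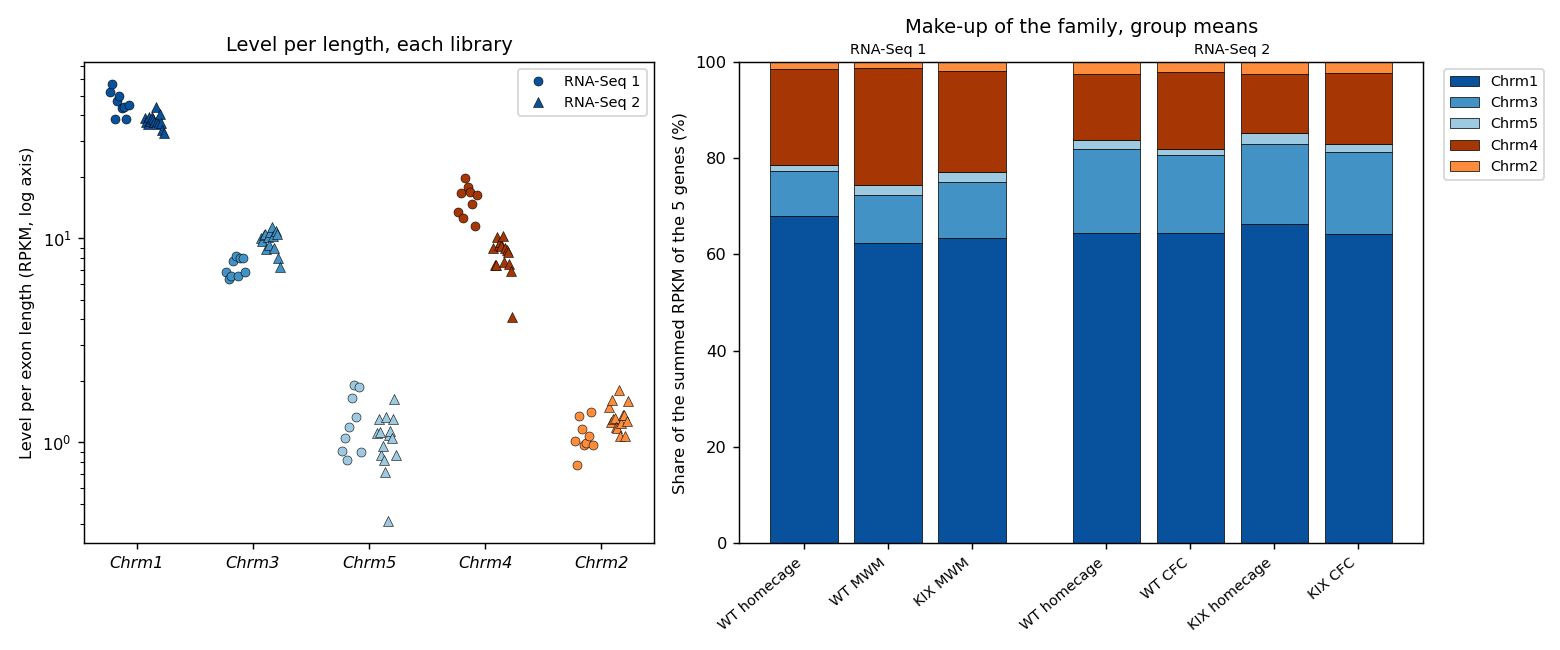
Left, the level of each member per exon length in every library (RPKM, log axis; circles RNA-Seq 1, triangles RNA-Seq 2). Right, the mean share of each member in the summed RPKM of the 5 genes in each group (blue, Gq/11-coupled; brown and orange, Gi/o-coupled). Chrm1 leads at 32.6 to 57 RPKM, while Chrm3 and Chrm4 change places between the experiments.

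The first comparison asked what training changed in WT mice. Chrm4, the Gi/o-coupled M4 receptor, had higher values after training than in homecage in both tasks, which is what it was chosen for. In RNA-Seq 1 its WT homecage libraries had 19.3, 24 and 18.2 CPM and its WT MWM libraries 28.4, 25.8 and 24.3 CPM. In RNA-Seq 2 its WT homecage libraries had 12.9, 10.6 and 10.7 CPM and its WT CFC libraries 14.6, 13.4, 13.7 and 13.2 CPM. Each trained WT library lay above each WT homecage library of its own experiment, although the nearest values, 24 and 24.3 CPM after MWM and 12.9 and 13.2 CPM after CFC, lay close together. The fitted log2 fold change over both experiments was 0.31 ± 0.05 (SE), a fold of 1.24. It was 0.35 ± 0.14 after MWM and 0.26 ± 0.17 after CFC in the fits of each experiment.

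As these values chose Chrm4, nothing is read from them. For reference, 13.4% of all genes had WT MWM and WT homecage libraries that did not overlap, and 5.34% of all genes separated WT CFC from WT homecage. In the pooled learning comparison 229 of 22038 genes, 1.04%, passed an adjusted p of 0.05 by edgeR's quasi-likelihood test, and 3.88% did by DESeq2.

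The 4 other members did not pass in the learning comparison. By edgeR 0 of 4 had an adjusted p under 0.05 and 0 of 4 an unadjusted p under 0.05, and DESeq2 gave 0 of 4 for both. Chrm1, the M1 receptor, had a log2 fold change of 0.0007 (95% interval -0.07 to 0.07, adjusted p = 0.994 by edgeR), the narrowest interval of the family. Chrm3 had 0.06 (-0.05 to 0.17, adjusted p = 0.57 by edgeR) and Chrm2 had -0.09 (-0.30 to 0.11, adjusted p = 0.66 by edgeR). Chrm5, with far fewer counts, had the widest, from -0.24 to 0.62 around 0.19 (adjusted p = 0.679 by edgeR).

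The blocked fit bears on this count, since WT trained and homecage libraries of the same number deviated together and may be paired. With the replicate number as a block, 930 genes (4.22%) were called in the learning comparison and still 0 of the 4 tested members. Chrm3 was then at 0.08 with an adjusted p of 0.215 by edgeR.

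**Figure D2:**
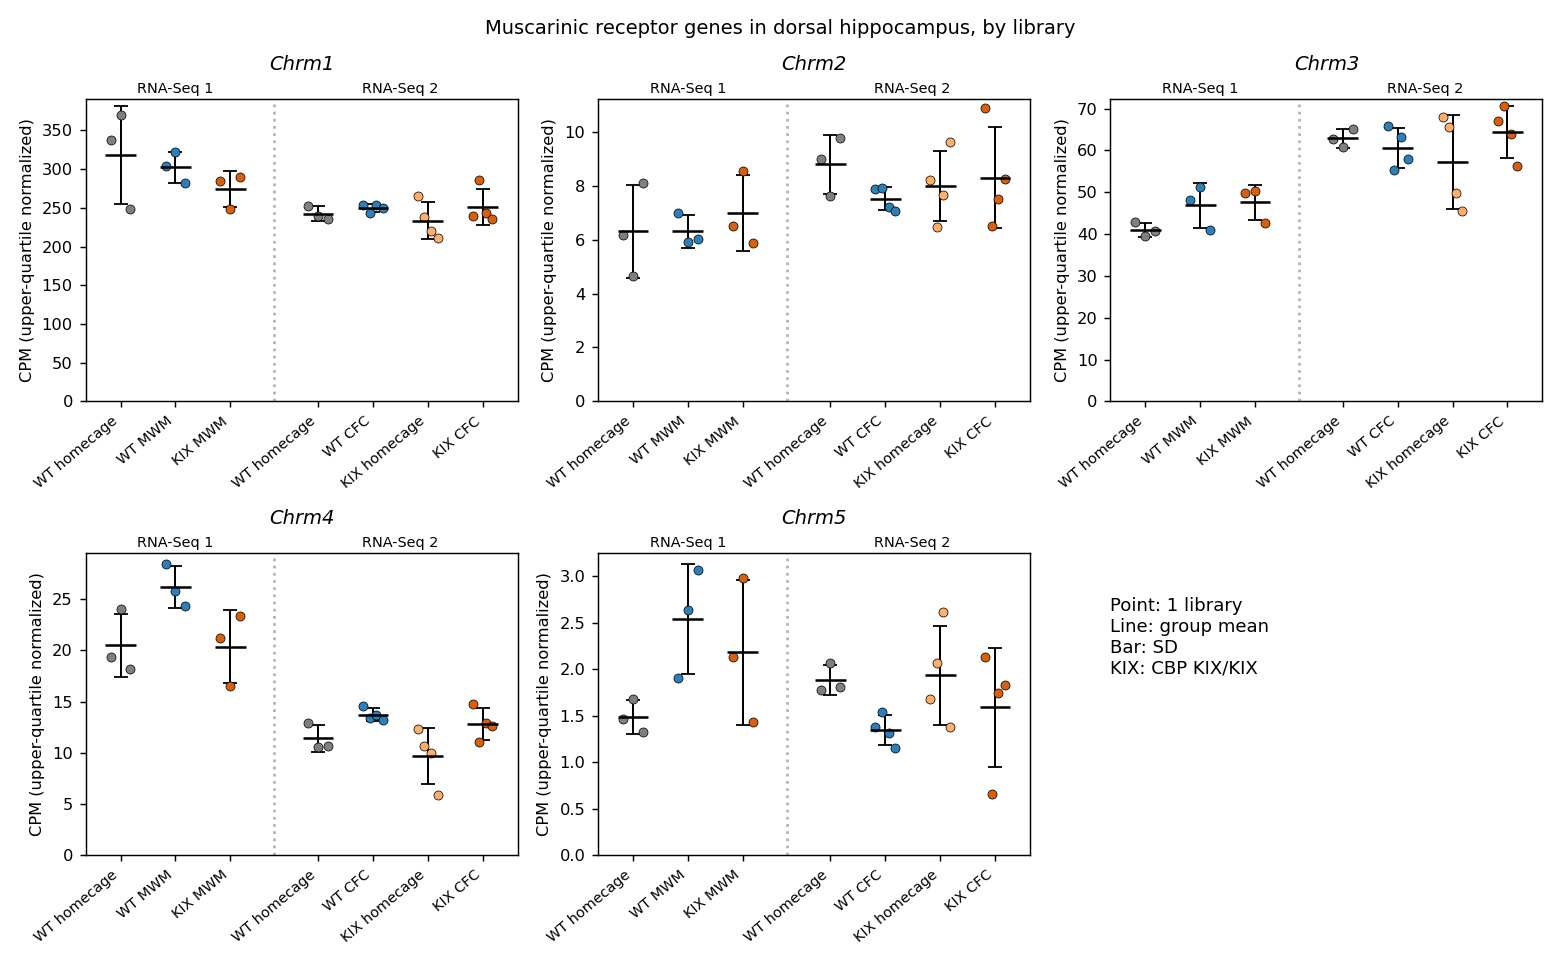
CPM of each member in every library, by group (points, libraries; lines, means; bars, SD; n = 3 or 4 a group; KIX, CBP KIX/KIX). For Chrm4 the trained WT libraries lie above the WT homecage libraries of their experiment, and for Chrm5 the same groups separate in opposite directions in the 2 experiments.

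Chrm5, the M5 receptor and the scarcest member by counts, had values that lay above homecage after MWM and below homecage after CFC in WT mice. In RNA-Seq 1 its WT homecage libraries had 1.46, 1.68 and 1.32 CPM and its WT MWM libraries 1.9, 2.64 and 3.07 CPM. In RNA-Seq 2 its WT homecage libraries had 1.78, 2.07 and 1.81 CPM and its WT CFC libraries 1.38, 1.54, 1.31 and 1.15 CPM. The groups overlapped in neither experiment, with trained libraries above homecage in the first and below in the second. The same groups did not overlap for 13.4% of all genes in the first and 5.34% in the second.

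Within RNA-Seq 1, of 22276 genes 10.9% had an unadjusted p under 0.05 and 0.0135% were called by edgeR, with 0.359% called by DESeq2. There the log2 fold change of Chrm5 was 0.78 ± 0.26 (SE, unadjusted p = 0.0102, adjusted p = 0.327 by edgeR). Within RNA-Seq 2 it was -0.48 ± 0.30 (unadjusted p = 0.134, adjusted p = 1 by edgeR, with 0% of 18851 genes called and 450 at an unadjusted p under 0.05). The interaction of learning with experiment, the difference between these, was 1.25 ± 0.28 on the log2 scale (95% interval 0.66 to 1.84, unadjusted p = 0.000373). Over 22038 genes its adjusted p was 0.385 by edgeR, where 3 of all genes (0.0136%) were called and 7.46% had an unadjusted p under 0.05. DESeq2, which called 0.132% of genes, gave an adjusted p of 0.04998, and edgeR without WT homecage replicate 1, 2 or 3 of RNA-Seq 1 gave 0.757, 0.217 or 0.0429. Over all alternatives run its adjusted p was 0.0429 to 0.78, and on leaving out 1 library the difference was 1.09 to 1.42. The call for Chrm5 thus depended on the tool and on 1 library, WT homecage replicate 3 of RNA-Seq 1, which lay far from the others of its group. The direction did not change under any of these alternatives.

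Marker genes moved beside Chrm5. The 5 dentate granule markers summed to 466 to 498 CPM in WT homecage and 342 to 360 CPM in WT MWM libraries, with no overlap, and to 343 to 423 and 364 to 433 CPM in WT homecage and WT CFC libraries. The endothelial markers, at 141 to 167 CPM in WT homecage and 97 to 123 CPM in WT MWM libraries, did not overlap either. Nor did the striatal markers, at 24.3 to 41.4 and 19.4 to 23 CPM. Over the 24 libraries the log2 sum of the dentate granule markers and Chrm5, each less its experiment's mean, had r = -0.78 (Spearman -0.74). The value was -0.68 without the 2 libraries with the most extreme marker sums, -0.86 in RNA-Seq 1 and -0.74 in RNA-Seq 2. This pair was the strongest of the 70 pairs of a member and a marker list, and these points share library and depth. The part of tissue make-up in the Chrm5 values was not tested, and in bulk tissue fewer cells of a type cannot be told apart from less RNA per cell.

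The remaining members overlapped between WT homecage and trained libraries in both experiments. After MWM Chrm3 had 41 to 51.3 CPM against 39.5 to 42.9 CPM in homecage, a log2 fold change of 0.19 ± 0.10 (adjusted p = 0.5 by edgeR), and after CFC 55.3 to 65.8 against 60.7 to 65.2 CPM (-0.05 ± 0.12, adjusted p = 1 by edgeR). Chrm1 in WT homecage libraries of RNA-Seq 1 had 338, 370 and 248 CPM, a wider spread than in any other group. The CA1 markers summed to 1050, 1444 and 814 CPM in the same 3 libraries, in the same order, and the choroid plexus markers to 116, 127 and 1473 CPM. Chrm1 had r = 0.82 with the CA1 sum in RNA-Seq 1 and 0.35 in RNA-Seq 2. With the choroid plexus sum it had -0.82 and -0.31. The part of either in the Chrm1 values was not tested. Chrm2 had 5.9 to 7 CPM after MWM, within the homecage range of 4.67 to 8.09 CPM, and 7.07 to 7.92 CPM after CFC against 7.61 to 9.77 CPM in homecage (-0.21 ± 0.16, adjusted p = 1 by edgeR).

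The second comparison asked how trained CBP KIX/KIX mice differed from trained WT mice. It shares all 7 trained WT libraries with the learning comparison, so a high WT value there raises the one and lowers the other. In the direction it was chosen for, Chrm4 had 21.2, 16.5 and 23.4 CPM in CBP KIX/KIX mice after MWM, each below the 3 WT MWM libraries. After CFC it had 14.8, 11, 12.9 and 12.6 CPM in CBP KIX/KIX mice, and these overlapped the WT CFC range of 13.2 to 14.6 CPM. The mutant MWM libraries also overlapped the WT homecage range of 18.2 to 24 CPM.

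The pooled log2 fold change of Chrm4 was -0.22 ± 0.04 (SE), a fold of 0.86. Within RNA-Seq 1 it was -0.36 ± 0.14 and within RNA-Seq 2 -0.10 ± 0.16. In the pooled comparison 2.84% of 21489 genes were called by edgeR and 4.36% by DESeq2, and 17.2% of all genes had WT and CBP KIX/KIX libraries that did not overlap after MWM, against 2.5% after CFC. The 5 CA1 markers summed to 1094 to 1262 CPM in WT and 921 to 952 CPM in CBP KIX/KIX libraries after MWM, with no overlap, and to 561 to 689 and 483 to 621 CPM after CFC. Of these markers 2 of 5 were called lower by edgeR in the pooled comparison and 5 of 5 had an unadjusted p under 0.05. The dentate granule markers did not overlap after MWM either, at 342 to 360 CPM in WT and 370 to 456 CPM in CBP KIX/KIX libraries. The part of these markers in the Chrm4 values was not tested.

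By edgeR 0 of the 4 tested members had an adjusted p under 0.05 in this comparison and 1, Chrm1, an unadjusted p under 0.05, with the same counts by DESeq2. Of all 21489 genes 3911, 18.2%, had an unadjusted p under 0.05 by edgeR. Chrm1 had a log2 fold change of -0.06 ± 0.02 (unadjusted p = 0.0178, adjusted p = 0.165 by edgeR), a fold of 0.96. After MWM its WT libraries had 304, 322 and 282 CPM and its CBP KIX/KIX libraries 285, 248 and 290 CPM. After CFC its WT libraries had 254, 243, 254 and 250 CPM and its CBP KIX/KIX libraries 240, 286, 244 and 235 CPM. The genotypes overlapped in both experiments, and the fits within them gave -0.14 ± 0.14 and 0.01 ± 0.07.

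The other members had intervals that covered 0. Chrm2 was at 0.13 (95% interval -0.05 to 0.30, adjusted p = 0.461 by edgeR), Chrm3 at 0.06 (-0.05 to 0.17, adjusted p = 0.594 by edgeR) and Chrm5 at -0.11 (-0.46 to 0.24, adjusted p = 0.791 by edgeR). Within either experiment all 4 overlapped between genotypes, and by edgeR 0 of the 4 had an adjusted or an unadjusted p under 0.05 there, with 0 adjusted by DESeq2. After MWM edgeR called 0% of all genes, with 1286 at an unadjusted p under 0.05, and DESeq2 0.0314%. After CFC edgeR called 0.0106% and DESeq2 0.0212%. For none did the interaction of genotype with experiment have an adjusted p under 0.05, by edgeR or by DESeq2, and the lowest unadjusted p was 0.183, for Chrm1. In this interaction 0 of 21489 genes (0%) were called by edgeR and 0 by DESeq2, with 1389 at an unadjusted p under 0.05 by edgeR.

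**Figure D3:**
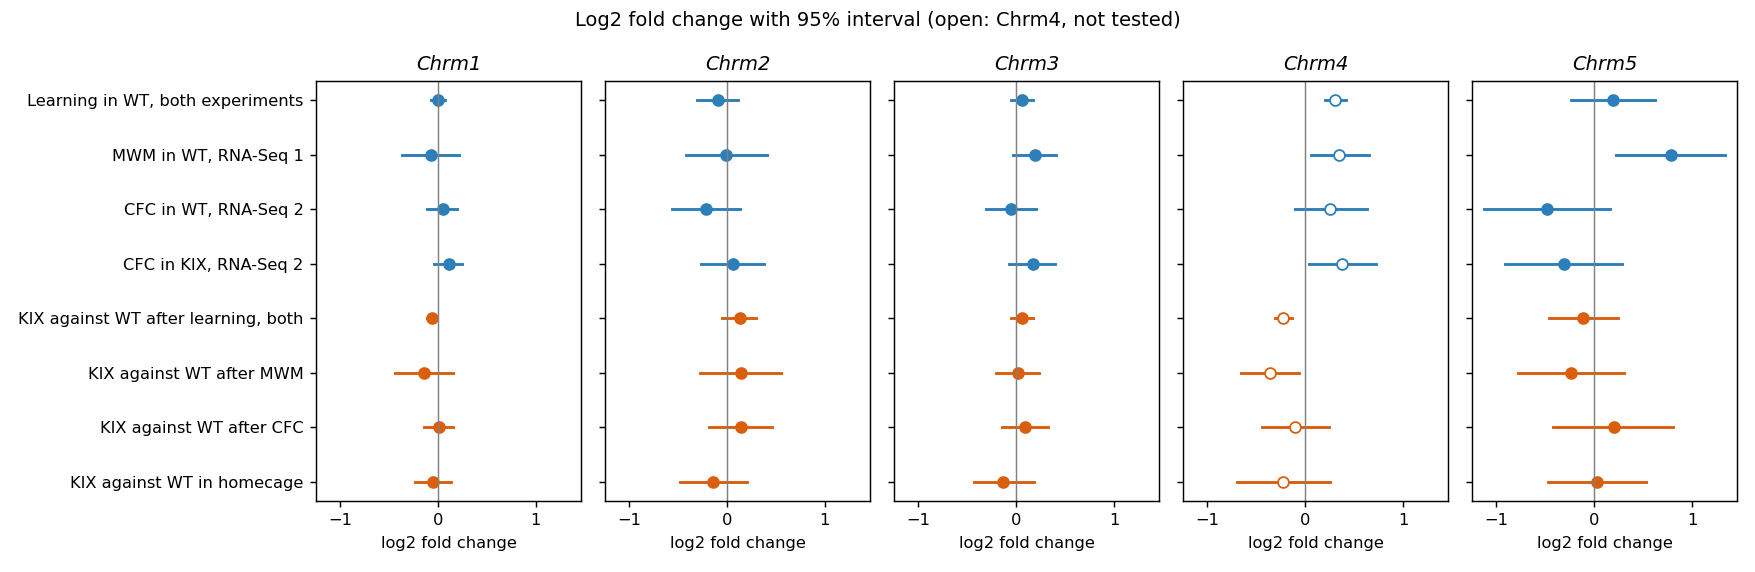
Log2 fold change with its 95% interval for each member in 8 comparisons (blue, training; orange, genotype; open circles, Chrm4, which was chosen on these libraries and not tested; KIX, CBP KIX/KIX). Among tested values the intervals of Chrm5 after MWM (0.22 to 1.34) and Chrm1 after learning by genotype (-0.11 to -0.01) leave out 0 before adjustment.

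The third comparison asked whether the genotypes differed before training. Chrm4 was not chosen on the mutant homecage libraries, but the WT homecage libraries entered the learning contrast, so it was not tested here. It had 12.3, 10.7, 9.97 and 5.9 CPM in CBP KIX/KIX homecage mice and 12.9, 10.6 and 10.7 CPM in WT homecage mice, so the groups overlapped. All 5 members overlapped here, while 6.87% of all genes did not. Its log2 fold change was -0.22 (95% interval -0.69 to 0.26). The lowest value, 5.9 CPM from 94 counts, belonged to replicate 4, the library with the highest astrocyte marker sum. Without it the change was -0.05 (-0.33 to 0.23), and without replicates 3 and 4 it was 0.01 (-0.29 to 0.31).

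Of the 4 tested members 0 passed an adjusted p of 0.05 in homecage and 0 an unadjusted p of 0.05, by edgeR or by DESeq2. Over all 18682 genes 2 were called (0.0107%), with 1144 (6.12%) at an unadjusted p under 0.05, and 59 by DESeq2 (0.316%). Chrm3 had 68, 65.6, 49.8 and 45.5 CPM in CBP KIX/KIX and 62.8, 60.7 and 65.2 CPM in WT homecage libraries, a change of -0.13 (-0.43 to 0.18, adjusted p = 0.908 by edgeR). Its 2 low values were replicates 3 and 4, and without both it was 0.09 (-0.05 to 0.22). Chrm1, Chrm2 and Chrm5 were at -0.05 (-0.23 to 0.13), -0.14 (-0.48 to 0.21) and 0.03 (-0.47 to 0.53). Without replicates 3 and 4 they were at 0.05 (-0.11 to 0.21), -0.25 (-0.62 to 0.12) and -0.01 (-0.47 to 0.45). The astrocyte markers summed to 1330, 1578, 1897 and 2693 CPM in the mutant and 1301 to 1360 CPM in the WT homecage libraries. By gene their log2 fold changes were 1.32 for Gfap, 0.42 for Aqp4, -0.03 for Gja1 and Slc1a3 and -0.01 for Aldh1l1. Marker sums of 3 lists did not overlap between these groups. CA1 markers had 411 to 619 CPM in mutant and 647 to 700 CPM in WT, CA3 markers 310 to 320 and 258 to 288 CPM, and thalamus and habenula markers 44.4 to 69 and 70.7 to 75 CPM. By gene the CA3 markers went both ways, at 0.60 for Bok, 0.21 for Iyd and Grik4, -0.15 for Cdh24 and -0.04 for Cpne4. All CA1 markers were lower, as were the thalamus and habenula markers except Plekhg1 (0.07). The part of these markers in the changes was not tested.

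Training of the mutants was measured in RNA-Seq 2 alone. Chrm4 in CBP KIX/KIX mice had 14.8, 11, 12.9 and 12.6 CPM after CFC against 12.3, 10.7, 9.97 and 5.9 CPM in homecage, overlapping by 1 trained library. All 5 members overlapped here too, while 4.91% of all genes did not. These 4 trained libraries entered the genotype contrast that chose Chrm4, so it was not tested. Its log2 fold change was 0.38 ± 0.16 (SE), and 0.26 ± 0.17 in WT mice. Without replicate 4 of the homecage mutants it was 0.21 ± 0.11, and without replicates 3 and 4 it was 0.14 ± 0.12, so its size rested largely on 1 homecage library. Over all 18851 genes edgeR called 0 (0%), with 2457 at an unadjusted p under 0.05, and DESeq2 called 300 (1.59%). Paired by replicate number edgeR called 4 genes (0.0212%).

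The interaction of genotype with CFC training, which uses the contrasts that chose Chrm4, was for this gene 0.12 (-0.38 to 0.61) and -0.11 without replicates 3 and 4. The other members had changes of -0.31 to 0.17 with CFC in mutants, each with an adjusted p of 0.551 or more by edgeR. Without replicates 3 and 4 of the homecage mutants Chrm1, Chrm2, Chrm3 and Chrm5 were at -0.01, 0.17, -0.06 and -0.28, each with an adjusted p of 0.807 or more by edgeR. None of the 4 tested members had an interaction of genotype with CFC training at an adjusted p under 0.05, by edgeR or by DESeq2, and 0 had an unadjusted p under 0.05. In that interaction 0 of 18851 genes (0%) were called by edgeR, with 903 at an unadjusted p under 0.05, and 1 by DESeq2 (0.0053%).

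Across libraries Chrm4 was higher where the markers of CA1 pyramidal cells were higher. Over the 24 libraries, each value less its experiment's mean on the log2 scale, Chrm4 and the CA1 marker sum had r = 0.71 (Spearman 0.63; 0.62 without the 2 libraries with the most extreme sums; 0.71 in RNA-Seq 1 and 0.73 in RNA-Seq 2). With astrocyte markers Chrm4 had r = -0.73 (Spearman -0.40), at 0.30 in RNA-Seq 1 and -0.92 in RNA-Seq 2. The r fell to -0.25 without the 2 most extreme libraries, so that relation rested on those libraries. With the striatal markers, at 19.4 to 53.6 CPM in sum, Chrm4 had r = -0.51 (Spearman -0.35). That was -0.21 without the 2 libraries with the most extreme sums, -0.56 in RNA-Seq 1 and -0.51 in RNA-Seq 2. These are descriptions over libraries that share groups and depth.

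**Figure D4:**
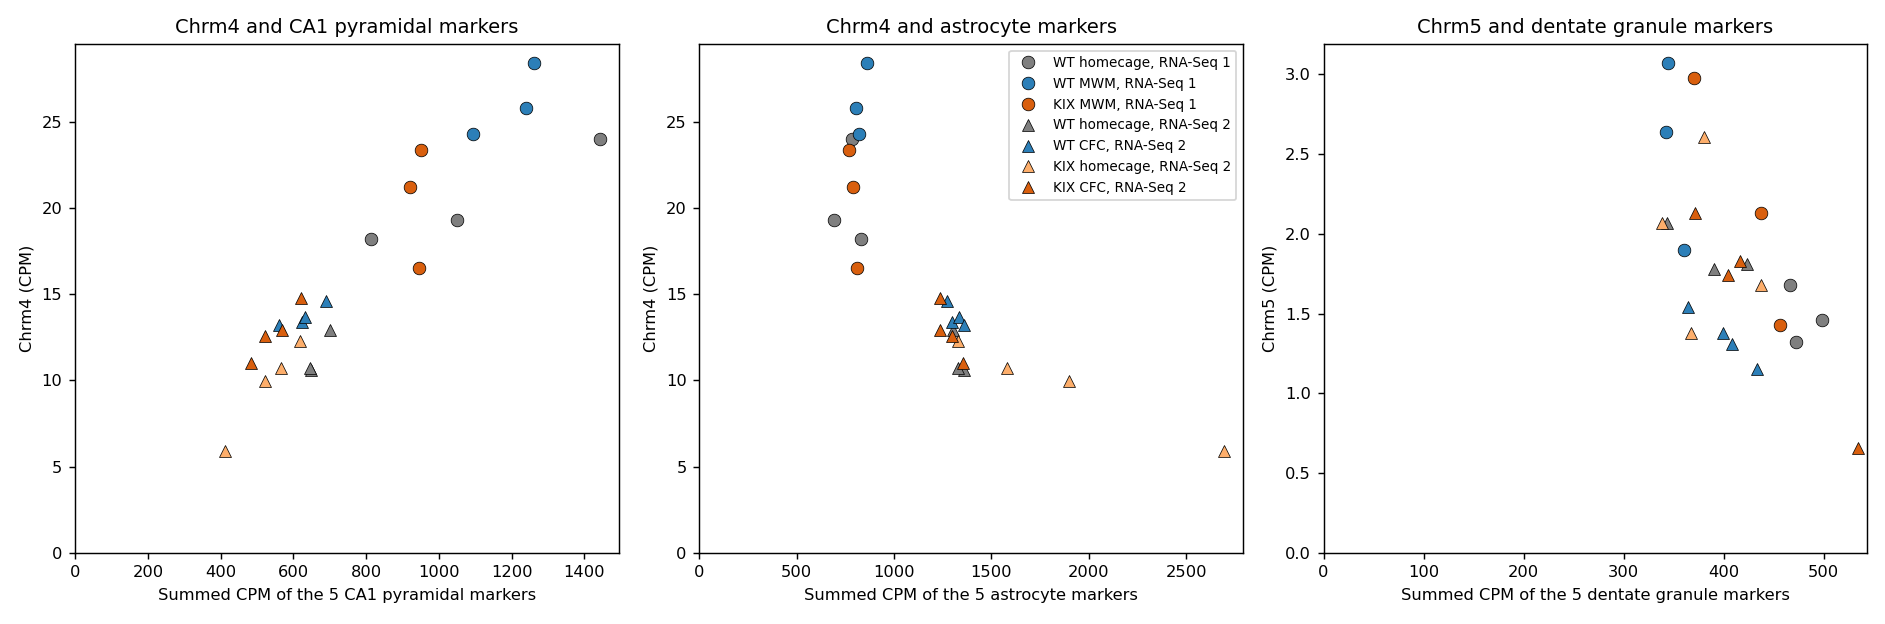
Chrm4 against the summed CPM of 5 CA1 markers (left) and 5 astrocyte markers (middle), and Chrm5 against 5 dentate granule markers (right), 1 point a library (circles RNA-Seq 1, triangles RNA-Seq 2; colours, groups). The library at 2693 CPM of astrocyte markers is CBP KIX/KIX homecage replicate 4, with Chrm4 at 5.9 CPM.

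The members did not vary as one family. The highest correlation between any 2 of them over the 24 libraries was 0.52, between Chrm1 and Chrm4 (0.55 in RNA-Seq 1 and 0.58 in RNA-Seq 2), followed by 0.47 between Chrm3 and Chrm4. Chrm1 and Chrm2 had r = -0.66 (-0.87 in RNA-Seq 1 and -0.42 in RNA-Seq 2).

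The genes most like each member among 14084 genes with a mean of at least 1 CPM in both experiments were likewise different. For Chrm1 they were Camk2a, encoding a calcium and calmodulin kinase subunit (r = 0.96), Rapgefl1 (0.96) and Psd (0.94), and these held without the 2 most extreme libraries (0.95, 0.93 and 0.92). For Chrm3 they were Npy2r, a receptor of neuropeptide Y (0.84), Sms, the spermine synthase (0.80), and Map7, which binds microtubules (0.79), which fell to 0.67, 0.75 and 0.60 without its 2 most extreme libraries. For Chrm5 they were Gap43, a growth cone protein (0.75), Ccn2 (0.74) and Ifit1bl1 (0.72), at 0.61, 0.61 and 0.65 without its 2 most extreme libraries.

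For Chrm2 the most alike were Usp29 (0.80), Poc5 (0.78) and Dpp10, an auxiliary subunit of potassium channels (0.76), at 0.79, 0.77 and 0.67 without its 2 most extreme libraries. For Chrm4 they were Lonrf1 (0.87), Mtus2 (0.86) and Jade2 (0.85), which fell to 0.66, 0.74 and 0.73 without its 2 most extreme libraries. All are Pearson correlations over 24 libraries, chosen as the highest of many and given with no p.

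The cholinergic pathway around the receptors was read from 6 lists of 79 genes. In the learning comparison 0 of 74 tested genes had an adjusted p under 0.05 by edgeR, against 1.04% of all genes. Of the 74, 21 had an unadjusted p under 0.05, against 17.3% of all genes, and 9 were called by DESeq2, against 3.88% of all genes. Their median log2 fold change was -0.04, beside -0.03 for all genes. With the replicate block 3 pathway genes were called higher and 5 lower, where 4.22% of all genes were called.

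By list, the lowest p-values after learning were as follows. In the Gq/11 arm Plcb2, a phospholipase C, had a log2 fold change of -0.45 ± 0.10 (SE; adjusted p = 0.0534 by edgeR) and Itpr1, an IP3 receptor, 0.14 ± 0.05 (adjusted p = 0.157 by edgeR). In the Gi/o arm the adenylyl cyclases Adcy5 and Adcy6 were at -0.15 ± 0.04 and -0.12 ± 0.03 (adjusted p = 0.063 and 0.0842 by edgeR). Among receptor regulators Arrb1, a beta-arrestin, was at -0.15 ± 0.04 and Rgs4, which speeds the GTPase of G proteins, at 0.15 ± 0.04 (adjusted p = 0.083 and 0.104 by edgeR). Among genes that make and clear acetylcholine Ache, the acetylcholinesterase, was at -0.12 ± 0.04 (adjusted p = 0.149 by edgeR). Without the RUVr factors these genes had adjusted p-values of 0.683 to 0.776 by edgeR. DESeq2 gave adjusted p-values of 0.0151 for Plcb2, 0.0105 for Itpr1, 0.0335 for Adcy5, 0.0319 for Arrb1 and 0.0107 for Rgs4. For Adcy6 and Ache DESeq2 gave 0.13 and 0.265. Of the nicotinic receptors, the other receptor family for acetylcholine, 11 of 16 subunits were tested, 0 were called and 3 had an unadjusted p under 0.05, beside 17.3% of all genes.

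Between genotypes after learning 1 of 72 tested pathway genes was called higher and 2 lower by edgeR, against 2.84% of all genes. Of the 72, 27 had an unadjusted p under 0.05, against 18.2% of all genes, and 7 were called by DESeq2, against 4.36% of all genes. The median log2 fold change of the 72 was -0.04, beside -0.01 for all genes. By list 7 of 17 genes of the Gq/11 arm, 6 of 17 of the Gi/o arm, 5 of 13 receptor regulators and 4 of 11 nicotinic subunits had an unadjusted p under 0.05, beside the same 18.2%. Lypd1, a Ly6 protein that modulates nicotinic receptors, rose in CBP KIX/KIX mice by 0.22 ± 0.04 (SE; adjusted p = 0.0154 by edgeR). Rgs8, another regulator of G protein signalling, fell by 0.15 ± 0.03 on the log2 scale (adjusted p = 0.0109 by edgeR). Both calls ended without the RUVr factors, at adjusted p = 0.265 and 0.524 by edgeR.

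In homecage 0 of 72 pathway genes were called by edgeR. Of these 9 had an unadjusted p under 0.05, against 6.12% of all genes, and 2 were called by DESeq2, against 0.316% of all genes. Without mutant replicates 3 and 4 the counts by edgeR were 0 called and 7 at an unadjusted p under 0.05, against 4.35% of all genes. Chrna4, the alpha4 nicotinic subunit, was at -0.50 ± 0.12 in homecage (adjusted p = 0.539 by edgeR). By DESeq2 it was 1 of the 2 called, at an adjusted p of 0.0266. Without those libraries Chrna4 was at -0.43 ± 0.12 (adjusted p = 0.822 by edgeR), beside -0.16 ± 0.05 (adjusted p = 0.0984 by edgeR) after learning. Lypd1 had 39.9, 39.2, 32.7 and 32.1 CPM in mutant and 42.8 to 44.9 CPM in WT homecage libraries, a change of -0.28 ± 0.09 (adjusted p = 0.786 by edgeR). Its 2 lowest values were replicates 3 and 4, and without them it was at -0.15 ± 0.06 (adjusted p = 1 by edgeR).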

How the data were processed

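The authors aligned reads with STAR, used SAMtools 1.6 and counted reads per gene with featureCounts 1.4.4 on mm10, per the submitters' processing notes, and deposited raw counts for 51826 genes in 24 libraries. The strand setting and annotation release are not given in the sources used here. Gene IDs were matched to GENCODE M21 (51633 matched).

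Counts were filtered with filterByExpr, scaled by upper quartile and tested with the quasi-likelihood test of edgeR 4.0.16 (R 4.3.3) with Benjamini-Hochberg adjustment over all genes tested. The comparisons pooled over experiments had experiment as a covariate and factors of unwanted variation from residuals (RUVr), 3 for learning and 4 for genotype after learning, written anew after the method the study used. DESeq2 1.42.0 was an alternative. The others were TMM scaling, other filters, other numbers of factors, GC-content normalization, a replicate block and leaving out each library. CPM and RPKM were computed from the counts, RPKM with GENCODE exon lengths.

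The members, gene lists and tests were chosen with earlier results of these data known. All 5 members were named, with up to 2 genes of lowest p in each pathway list, any pathway gene called, Crebbp, Fos, Arc and Egr1, and the 3 genes most correlated with each member. The values of 1 pathway gene that the rule names are not reported here. Chrm4 was not tested in any comparison, as each shares libraries with the contrasts used to choose it. Groups came from the labels, which do not tie libraries to mice, although the study counts mice in these groups. The p-values measure the spread between libraries, which may be technical in part. Libraries of the same number in WT homecage and trained groups deviated together (6 pairs, r = 0.16 to 0.58, against -0.49 to 0.15 for other numbers). The ranges nearly touch, at 0.1579 and 0.1496, so the check does not settle whether these WT libraries are paired. Mutant CFC and homecage libraries of the same number had 0.19 to 0.46 (4 pairs), but other numbers had -0.39 to 0.32. As these ranges overlap, pairing in the mutants is not settled either. The fits carry no block unless named, and blocked values are given where they move a count. Genotype pairs of the same number did not all deviate together (7 pairs, -0.33 to 0.61, and 3 in homecage, -0.05 to 0.38). Scripts were tested on simulated data. Total counts and floors are given with the results.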

Additional observations from a re-analysis of the deposited data

Results flagged for a closer look

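The difference between the learning effects on Chrm5 in the MWM and CFC experiments was 1.25 ± 0.28 on the log2 scale (SE; unadjusted p = 0.000373, adjusted p = 0.385 by edgeR's quasi-likelihood test of the interaction). In this fit it passed only the unadjusted threshold of 0.05, which 7.46% of all genes passed. DESeq2 gave an adjusted p of 0.04998, and edgeR without WT homecage replicate 3 of RNA-Seq 1 gave 0.0429.

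Among 18 combinations of a gene and a group of 4 libraries, 2 had a library far from the other 3, where chance marks about 1 group in 20. Fos was lowest in WT CFC replicate 2, at 24.8 CPM against 33 to 33.6 CPM. Fos was highest in CBP KIX/KIX homecage replicate 3, at 117 CPM against 1.83 to 4.77 CPM.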

How the results depend on the processing

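Of 1095 alternative values, 1035 kept their direction and side of the threshold. Counts of called members stayed at 0 except for the interaction of learning with experiment, where Chrm5 gave 1 with DESeq2 and 0 to 1 on leaving out 1 library.

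Small changes took the other sign under some settings. Chrm1 after learning was at -0.0034 with the replicate block, -0.01 with no RUVr factors, -0.00026 with 1 factor and -0.003 with the block and no factors. Without mutant homecage replicates 3 and 4, an alternative chosen after seeing the data, the homecage changes of Chrm1, Chrm3, Chrm4 and Chrm5 were 0.05, 0.09, 0.01 and -0.01, those of Chrm1 and Chrm3 with CFC in mutants -0.01 and -0.06, and the interactions of Chrm1 and Chrm4 with genotype -0.05 and -0.11. Chrm2 after MWM was at 0.04 with TMM, 0.06 with DESeq2 and 0.03 with no filter, and its interaction of genotype with experiment at -0.02 with no filter and -0.10 with GC normalization. Chrm3 after CFC in WT was at 0.01 with the block. The cause was not tested.

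Leaving out 1 library gave -0.07 to 0.06 for Chrm1 after learning and -0.25 to 0.05 for Chrm5 by genotype after learning. Ranges were -0.12 to 0.14 for Chrm5 in homecage, -0.23 to 0.05 for Chrm1 and -0.18 to 0.22 for Chrm2 after MWM, and -0.11 to 0.17 for Chrm2 with CFC in mutants. By genotype after MWM they were -0.03 to 0.25 for Chrm2 and -0.07 to 0.09 for Chrm3, and after CFC -0.07 to 0.04 for Chrm1, -0.03 to 0.24 for Chrm2 and -0.03 to 0.49 for Chrm5. The interaction of genotype with CFC gave -0.01 to 0.12 for Chrm1, -0.05 to 0.24 for Chrm4 and -0.06 to 0.46 for Chrm5. That of learning with experiment gave -0.27 to 0.0038 for Chrm1 and -0.02 to 0.22 for Chrm4, and that of genotype with experiment -0.16 to 0.18 for Chrm2 and -0.16 to 0.01 for Chrm3.

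Counts over all genes moved far more than the members. The learning comparison called 34 to 2277 genes on leaving out 1 library and 9 to 930 under the other settings, the lowest without RUVr factors and the highest with the replicate block. The genotype comparison called 234 to 1023 and 4 to 2792, the highest with the block, where 5 pathway genes were higher and 22 lower. The homecage comparison called 0 to 7 and 0 to 59, MWM in WT 0 to 2418 and 1 to 131, CFC in mutants 0 to 999 and 0 to 300, and the interaction of learning with experiment 0 to 892 and 1 to 29. CFC in WT called 0 to 17 and 0 to 20, and genotype within MWM 0 to 2 and 0 to 7. The block changed no member's call. At 21 to 95 counts of Chrm5 a library in RNA-Seq 2, counting error limits that member most.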
